A study of Mus musculus with 7 samples.

Results

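Genes of the blood vessel wall and of its growth signals, 10 in all, were followed in ECD transgenic mammary tumours and in control glands of mice. They were chosen by gene symbol: 8 genes that mark endothelial cells (Pecam1, Cdh5, Kdr, Flt1, Emcn, Plvap, Sox17 and Sox18) and 2 secreted signals of vessel growth (Vegfa and Angpt2). All 10 were found among the 50600 genes of the tables, and all 10 had enough counts to be tested. Total RNA was sequenced from 4 tumours and 3 control glands. RNA of each tumour came from a central piece of the mass. Tumours 1a and 1b are adenosquamous, tumour 3 is of spindle cell type and tumour 4 is papillary. They carry an ECD transgene, and the sources used here do not give its promoter, its species or the cells it acts in, nor the strain, the ages or the genotype of the control glands. The series calls the tumours independent, but 1a and 1b share a number and whether they came from 1 animal is not stated. The spindle cell and papillary types are 1 tumour each.

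Endothelial cells line blood vessels. Vegfa, a secreted growth factor made by many cell types and induced when oxygen is scarce, drives their growth through the receptor tyrosine kinase Kdr (VEGFR2). Flt1 (VEGFR1) binds Vegfa more tightly but signals weakly, and a soluble form of it acts as a decoy. Angpt1, made by cells around the vessel, activates the endothelial receptor Tek (Tie2) and steadies the vessel, while Angpt2, released by endothelial cells of remodelling vessels, mostly opposes it. In the mammary gland the vessels run through a fat pad, and in tumours the vessels are known to be irregular and leaky.

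Promoter sequences from RefSeq (GRCm38.p6) were held for 4 of the 10 genes. Vegfa has 2 entries. Those of the receptors Kdr and Flt1 and the first of their ligand Vegfa are shown because the comparison of ligand with receptor turns on these genes. Each line gives the 250 bases before the start of transcription, 5′ to 3′ along the gene, and capitals mark GGAA or its reverse complement TTCC, the core bound by ETS transcription factors, which are active in endothelial cells.
Kdr, chr5:75978456-75978705, minus strand: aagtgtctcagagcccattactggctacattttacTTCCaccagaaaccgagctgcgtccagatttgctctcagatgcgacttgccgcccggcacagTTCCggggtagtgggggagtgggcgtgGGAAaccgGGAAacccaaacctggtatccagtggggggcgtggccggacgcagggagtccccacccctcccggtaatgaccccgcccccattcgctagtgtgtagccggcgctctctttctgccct
Flt1, chr5:147726012-147726261, minus strand: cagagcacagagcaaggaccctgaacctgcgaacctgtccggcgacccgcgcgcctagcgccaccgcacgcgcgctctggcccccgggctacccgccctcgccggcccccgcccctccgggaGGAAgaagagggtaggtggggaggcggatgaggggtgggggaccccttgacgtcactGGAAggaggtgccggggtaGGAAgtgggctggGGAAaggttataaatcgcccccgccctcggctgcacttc
Vegfa, chr17:46032378-46032627, minus strand: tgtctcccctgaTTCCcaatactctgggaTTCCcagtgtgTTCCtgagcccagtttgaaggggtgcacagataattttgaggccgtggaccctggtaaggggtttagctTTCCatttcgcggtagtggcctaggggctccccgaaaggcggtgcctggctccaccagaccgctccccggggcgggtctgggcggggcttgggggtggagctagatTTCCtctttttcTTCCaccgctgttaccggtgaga
The core occurred 4 times in the Kdr window, 4 times in the Flt1 window and 6 times in the Vegfa window. It is no mark of vessel genes by itself, since 93.4% of the 32851 windows of the same length held at least 1 match on either strand, with a median of 3. The longer form CCGGAA, which contains the shorter core, was searched on both strands and occurred in the Kdr window alone of these 3, and in 12% of all windows. Another motif, ACGTG, the core bound by hypoxia-inducible factors, was found on neither strand of the 3 windows shown, once in the second Vegfa window and in 16.6% of all windows. That second window lies inside the annotated Vegfa gene, with 218 of its 250 bases in exons.

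Total counts ranged from 5420572 to 28638194 in tumours and from 5148436 to 35631302 in glands, and genes of mitochondrial DNA took 18.34% to 32.61% of them in tumours and 48.36% to 64.83% in glands. Levels are given as CPM, counts over the library size times 1e+06 after scaling by TMM, which reduces the pull of a few abundant genes. The labelled tissue showed in the markers: Krt8, a luminal keratin, was at 96.3 to 287 CPM in tumours and 32.1 to 59.5 CPM in glands, and 8 fat cell markers summed to 8.435 to 53.54 CPM in tumours and 1090 to 3184 CPM in glands. Skeletal muscle markers, 8 genes, summed to 1.185 to 235.9 CPM in tumours and to 14600, 21.53 and 28040 CPM in control glands 1, 2 and 3, so glands 1 and 3 held muscle RNA.

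Most endothelial genes had lower values in tumours, lowest in the papillary tumour for most, but over all 4 tumours only Sox17 passed the test. By edgeR's quasi-likelihood test with Benjamini-Hochberg adjustment, 1 of the 10 genes passed at an adjusted p under 0.05, and it was lower in tumours, while 8.47% of all 14149 tested genes passed (4.57% as lower). The log2 fold change (tumours over glands) had a median of -0.77 over the 10 genes and 0.12 over all tested genes. In 3 of the 10 genes (Pecam1, Kdr and Sox17) every tumour lay below every gland, as did 13.2% of all tested genes, and in 0 every tumour lay above (16.3%). Groups failed to overlap in either direction for 29.5% of all tested genes. Taken 1 at a time, tumours 1a, 1b, 3 and 4 were below every gland in 4, 5, 9 and 10 of the 10 genes, while 31.7%, 31.3%, 30.7% and 33.8% of all tested genes were. These are whole pieces of tissue, in which fewer endothelial cells and less RNA per endothelial cell cannot be told apart.

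**Figure D1:**
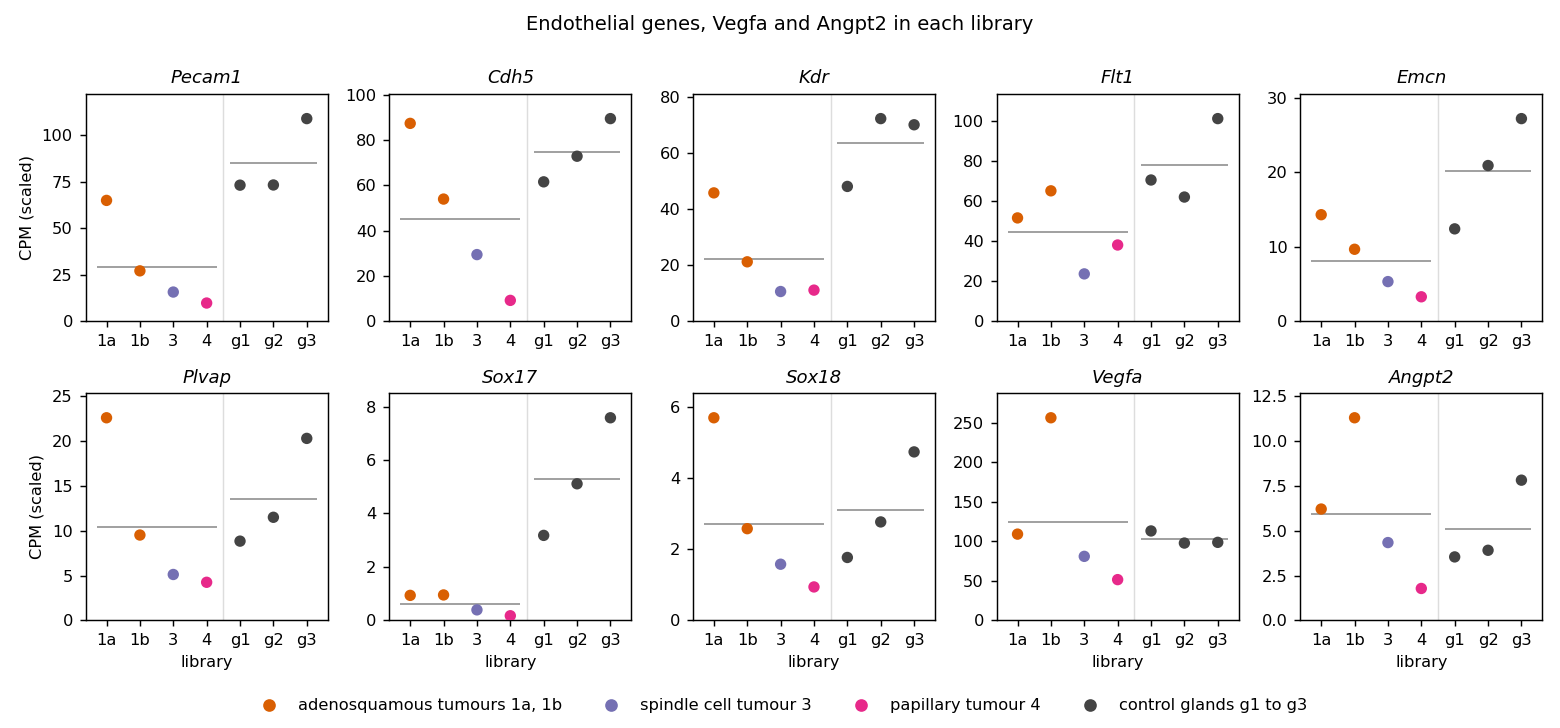
CPM of the 8 endothelial genes, Vegfa and Angpt2 in tumours 1a, 1b, 3 and 4 (left of each panel) and control glands g1 to g3 (right), on linear axes that start at 0. Points are single libraries and grey lines are group means. Papillary tumour 4 has the lowest point in 8 of the 10 panels, and Vegfa peaks at 256 CPM in tumour 1b.

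Pecam1 and Cdh5 hold endothelial cells to one another. Pecam1 (CD31; ENSMUSG00000020717, chromosome 11, 106654217 to 106750628, GRCm38), an adhesion molecule also carried by platelets and some leukocytes, was at 65.0, 27.1, 15.7 and 9.79 CPM in tumours 1a, 1b, 3 and 4, and at 73.2, 73.3 and 109 CPM in glands 1, 2 and 3. Every tumour was thus below every gland, with tumour 1a nearest to them, but the difference did not pass (log2 -1.54, SE 0.61, adjusted p = 0.150 in edgeR). Cdh5 (VE-cadherin; ENSMUSG00000031871, chromosome 8, 104101625 to 104144511), the cadherin of endothelial junctions, was at 87.3, 53.9, 29.4 and 9.20 CPM in the same tumours, against 61.5, 72.8 and 89.4 CPM in glands. Tumour 1a lay within the gland range and the papillary tumour far below it (log2 over all tumours -0.73, SE 0.65, adjusted p = 0.484).

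The VEGF receptor genes Kdr and Flt1 both averaged lower in tumours, without passing. Kdr (ENSMUSG00000062960, chromosome 5, 75932827 to 75978458), the main signalling receptor, was at 45.8, 21.2, 10.6 and 11.1 CPM in tumours 1a, 1b, 3 and 4, against 48.1, 72.3 and 70.1 CPM in glands, with no overlap between the groups (log2 -1.52, SE 0.54, adjusted p = 0.117 in edgeR). Flt1 (ENSMUSG00000029648, chromosome 5, 147561604 to 147726011) was at 51.5, 65.0, 23.6 and 38 CPM in tumours, against 70.4, 61.9 and 101 CPM in glands, and tumour 1b reached into the gland range (log2 -0.80, SE 0.38, adjusted p = 0.203). On the log2 CPM scale Flt1 minus Kdr was 0.17, 1.61, 1.14 and 1.76 in tumours 1a, 1b, 3 and 4, against 0.55, -0.23 and 0.53 in glands. This pair was chosen after its values were seen, so it is given with no test. Counts per gene do not separate the soluble form of Flt1 from the full receptor.

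Emcn and Plvap mark the surface of capillary and venous endothelium. Emcn (endomucin; ENSMUSG00000054690, chromosome 3, 137341067 to 137432185), a sialomucin, was at 14.3, 9.66, 5.32 and 3.28 CPM in tumours, against 12.4, 20.9 and 27.2 CPM in glands, so only tumour 1a reached the gland range (log2 -1.32, SE 0.54, adjusted p = 0.155 in edgeR). Plvap (ENSMUSG00000034845, chromosome 8, 71497765 to 71511752), the protein of the diaphragms of fenestrated vessels, was at 22.6, 9.52, 5.12 and 4.25 CPM in tumours, against 8.84, 11.5 and 20.3 CPM in glands. Tumour 1a held more Plvap than any gland, and tumours 3 and 4 less than any (log2 -0.40, SE 0.63, adjusted p = 0.71, and 0.01 without control gland 3).

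Sox17 and Sox18 are transcription factors of the SoxF family. Sox17 acts in arterial endothelium and Sox18 in vessel and lymphatic development. Sox17 (ENSMUSG00000025902, chromosome 1, 4490931 to 4497354) was at 0.936, 0.952, 0.394 and 0.174 CPM in tumours 1a, 1b, 3 and 4 (11, 7, 4 and 5 counts), against 3.18, 5.11 and 7.58 CPM in glands 1, 2 and 3 (9, 162 and 160 counts). It averaged 0.614 ± 0.392 CPM in tumours (SD, n = 4) and 5.29 ± 2.21 CPM in glands (SD, n = 3), a 9.01-fold fall that passed (log2 -3.17, SE 0.68, adjusted p = 0.0337 in edgeR). The size was much the same whichever library was left out (log2 -2.80 to -3.48), but the call was not. It held without the papillary tumour (adjusted p = 0.0268) and was lost without tumour 1a (0.0524), tumour 1b (0.0712), the spindle cell tumour (0.0804) or control gland 1 (0.0708), 2 (0.0906) or 3 (0.137), and with no filter on low counts (0.0570). The exons of Sox17 overlap those of Gm37587 on the other strand, and the libraries do not mark strand, so reads of these neighbours cannot be told apart.

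Sox18 (ENSMUSG00000046470, chromosome 2, 181669836 to 181671640) was at 5.70, 2.58, 1.58 and 0.941 CPM in tumours 1a, 1b, 3 and 4, against 1.77, 2.77 and 4.74 CPM in glands (log2 -0.24, SE 0.69, adjusted p = 0.847 in edgeR; 0.01 without the papillary tumour and 0.21 without control gland 3). Tumour 1a was above every gland, while tumours 3 and 4 were below every gland. Sox17 minus Sox18 in log2 CPM was -2.46, -1.33, -1.72 and -1.84 in tumours 1a, 1b, 3 and 4, and 0.81, 0.86 and 0.67 in glands 1, 2 and 3. Every tumour lay below every gland in this difference. Its sign has no meaning by itself, since the genes differ in length. Per kilobase of annotated exon, Sox18 exceeded Sox17 in every tumour and also in glands 1, 2 and 3. There Sox18 was at 1.09, 1.71 and 2.93 CPM per kilobase, against 0.667, 1.07 and 1.59 for Sox17. The pair was chosen after its values were seen and is given with no test.

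The growth signals spread around their gland values. Vegfa (ENSMUSG00000023951, chromosome 17, 46016993 to 46032369) was at 109, 256, 80.9 and 51.5 CPM in tumours 1a, 1b, 3 and 4, and at 113, 97.7 and 98.6 CPM in glands 1, 2 and 3. The glands were close together and the tumours spread around them, with adenosquamous tumour 1b well above and tumours 3 and 4 below every gland. Vegfa averaged 124 ± 90.7 CPM in tumours (SD, n = 4) and 103 ± 8.69 CPM in glands (SD, n = 3), and its log2 fold change of 0.27 (SE 0.53, adjusted p = 0.766 in edgeR) turned to -0.32 without tumour 1b.

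Angpt2 (ENSMUSG00000031465, chromosome 8, 18690263 to 18741562), the Tek antagonist, was at 6.21, 11.3, 4.34 and 1.78 CPM in tumours 1a, 1b, 3 and 4, against 3.54, 3.91 and 7.82 CPM in glands 1, 2 and 3. Tumour 1b was again highest and the papillary tumour lowest, and the groups overlapped (log2 0.19, SE 0.64, adjusted p = 0.874 in edgeR). The direction was not settled: it was -0.30 without tumour 1b and -0.42 in limma-voom. Gland 1 held only 10 counts of Angpt2, so its value is coarse.

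Levels of different genes can be set side by side only per length. Per kilobase of annotated exon, Vegfa was at 25.5, 59.7, 18.9 and 12 CPM in tumours 1a, 1b, 3 and 4, and at 26.4, 22.8 and 23 CPM in glands. Cdh5 was at 20.8, 12.8, 6.99 and 2.19 CPM per kilobase in tumours and 14.6, 17.3 and 21.3 in glands, and Sox17 at 0.0365 to 0.200 in tumours and 0.667 to 1.59 in glands. Vegfa was the highest of the 10 genes by this measure in each of the 7 libraries.

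The tumours were also compared by type. A fit with 4 types (adenosquamous, spindle cell, papillary and gland) compared each tumour type with the same 3 glands. The spindle cell and papillary types have 1 library each and were assumed to vary like the glands and the adenosquamous pair. In the papillary tumour, where all 10 genes were below every gland, 4 of 10 passed, all as lower (11.1% of all tested genes passed, 5.41% as lower). Cdh5 fell 8.11-fold (log2 -3.02, SE 0.51, adjusted p = 0.0266 in edgeR), Pecam1 8.71-fold (log2 -3.12, SE 0.68, adjusted p = 0.0411), Kdr 5.72-fold (log2 -2.52, SE 0.60, adjusted p = 0.0491) and Sox17 29.8-fold (log2 -4.90, SE 0.97, adjusted p = 0.0335). Emcn missed narrowly (log2 -2.63, SE 0.65, adjusted p = 0.0515) and passed in DESeq2, in limma-voom and under both other scalings. Flt1 had the smallest difference of the 8 endothelial genes (log2 -1.03, SE 0.43, adjusted p = 0.168). Vegfa (log2 -1, SE 0.56, adjusted p = 0.274) and Angpt2 (log2 -1.54, SE 0.76, adjusted p = 0.225) did not pass.

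**Figure D2:**
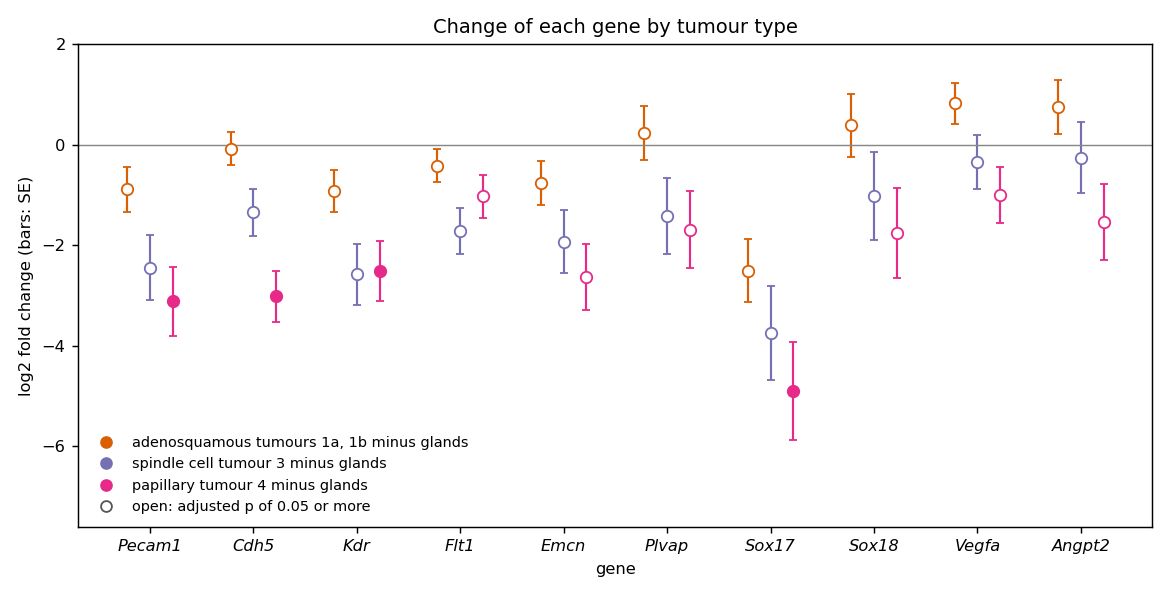
Log2 fold change of each gene in the adenosquamous tumours (n = 2), the spindle cell tumour (n = 1) and the papillary tumour (n = 1) over the same 3 glands, with SE bars from the fit of 7 libraries in 4 types. Filled points have an adjusted p under 0.05, which holds for Pecam1, Cdh5, Kdr and Sox17 in the papillary tumour.

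These papillary calls rested on single libraries. In edgeR 0 of the 10 passed without tumour 1b or without control gland 3, which left 5 of the 10 genes at an unadjusted p under 0.05 in both cases. Calls over all tested genes fell away too, to 3.01% without tumour 1b and 0% without control gland 3. On all libraries DESeq2 and limma-voom called 5 of the 10 each, where they called 24.9% (DESeq2) and 17.6% (limma-voom) of all tested genes. Cdh5 alone passed when control gland 2 was left out, Cdh5 and Sox17 when control gland 1 was, Pecam1 and Cdh5 when tumour 1a was, and Pecam1, Cdh5 and Sox17 when the spindle cell tumour was. For Cdh5 the size moved little, with log2 values of -3.09 to -2.85 with 1 library left out.

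In the adenosquamous tumours, 0 of 10 genes passed in edgeR, where 10.8% of all tested genes passed. At an unadjusted p under 0.05 was 1 of the 10 (29.6% of all tested genes). DESeq2 called 1 of the 10 (23.1% of all tested genes) and limma-voom 0 (11.1%). Cdh5 was close to the glands (log2 -0.08, SE 0.33, adjusted p = 0.897), and Sox17 came nearest to a call (log2 -2.51, SE 0.63, adjusted p = 0.0553). Sox17 passed when only the adenosquamous tumours and glands were fitted, without the papillary tumour, and under median-ratio scaling. Vegfa and Angpt2 had their highest values here, with log2 differences of 0.82 (SE 0.41, adjusted p = 0.236) and 0.75 (SE 0.54, adjusted p = 0.394).

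In the spindle cell tumour, 0 of 10 genes passed in edgeR, where 1.88% of all tested genes passed. There 6 genes were at an unadjusted p under 0.05 (22.3% of all tested genes). DESeq2 called 6 of the 10 (15.5% of all tested genes) and limma-voom 0 (3.42%). Kdr was at log2 -2.58 (SE 0.61, adjusted p = 0.0802), Pecam1 at -2.45 (SE 0.65, adjusted p = 0.102) and Flt1 at -1.72 (SE 0.45, adjusted p = 0.100).

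Differences between the types themselves did not pass for any of the 10 genes in edgeR. All 10 were lower in the papillary than in the adenosquamous tumours, with log2 differences of -2.94 to -0.62. Of them 7 were at an unadjusted p under 0.05, as were 21.2% of all tested genes. Cdh5 came nearest (log2 -2.94, SE 0.52, adjusted p = 0.0584), and 1.04% of all tested genes passed in that comparison. All 10 were also lower in the spindle cell than in the adenosquamous tumours, with log2 differences of -1.66 to -1.01. Adjusted p-values in edgeR were 0.323 to 0.715, and 0% of all tested genes passed. At an unadjusted p under 0.05 were 4 of the 10 and 12.6% of all tested genes. Between the spindle cell and papillary tumours 0 of 10 passed and 0% of all tested genes did. At an unadjusted p under 0.05 were 1 of the 10 and 11.3% of all tested genes. Over these 3 comparisons DESeq2 made 5 calls among the 10 genes and limma-voom 1, all between the papillary and adenosquamous tumours. There DESeq2 called 15.1% and limma-voom 3.19% of all tested genes. The order adenosquamous, spindle cell, papillary in most of the 10 genes is thus an order of values, not of tested differences.

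To ask how the 10 genes stood relative to the endothelial RNA in each library, the mean log2 CPM of 22 other endothelial genes was subtracted. That mean was 3.47, 2.51, 1.71 and 0.91 in tumours 1a, 1b, 3 and 4, and 2.42, 3.81 and 4.09 in glands 1, 2 and 3, so endothelial RNA was also scarce in tumours 3 and 4. In control gland 1, Icam2 and Sox7 of the 22 had 0 counts and Cldn5 had 1. Values this near the floor pull down gland 1's mean and raise its relative values. Pecam1, for example, was at 3.77 in gland 1, against 2.39 and 2.68 in glands 2 and 3. On this relative scale Sox17 was at -3.38, -2.40, -2.66 and -2.66 in tumours, against -0.70, -1.42 and -1.15 in glands (tumours minus glands -1.69). Sox18 was at -0.93, -1.07, -0.94 and -0.82 in tumours, against -1.50, -2.27 and -1.81 in glands (difference 0.92).

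Sox17 and Sox18 were the genes whose groups did not overlap on this scale, Sox17 lower and Sox18 higher in tumours relative to other endothelial genes. By a two-sided exact permutation test each had p = 0.0571 (0.229 adjusted over the 10 genes), the smallest p that 4 tumours against 3 glands can give. Vegfa and Angpt2 had relative differences of 1.31 and 1.32 (exact p = 0.114 for both), Plvap of 0.68 and Flt1 of 0.43, while Kdr was at -0.46 and Pecam1 at -0.58. Cdh5 (0.16) and Emcn (-0.14) differed least, and their signs turned under other settings.

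**Figure D3:**
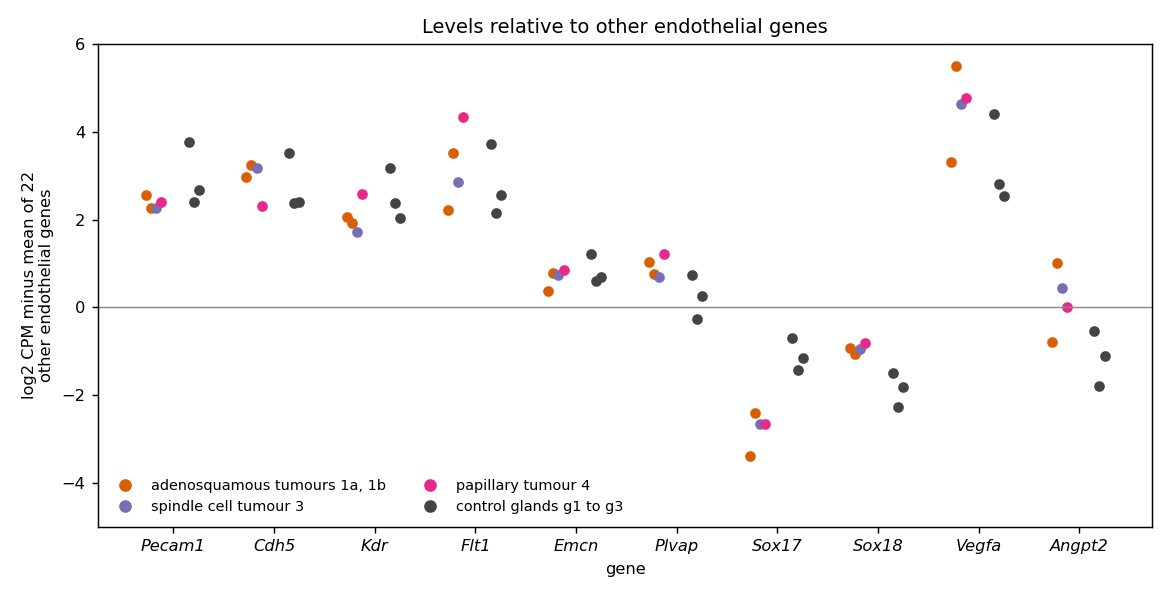
Log2 CPM of each gene minus the mean log2 CPM of 22 other endothelial genes in the same library, with the 4 tumours left of the 3 glands. For Sox17 the tumours (-3.38 to -2.40) lie below the glands (-1.42 to -0.70), and for Sox18 they lie above (-1.07 to -0.82 against -2.27 to -1.50).

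Ligand and receptor were also compared within each library. Vegfa minus Kdr in log2 CPM was 1.25, 3.58, 2.91 and 2.20 in tumours 1a, 1b, 3 and 4, and 1.23, 0.43 and 0.49 in glands 1, 2 and 3. Every tumour lay above every gland, tumour 1a narrowly (mean 2.49 ± 1 in tumours and 0.72 ± 0.45 in glands, SD, n = 4 and 3). The difference was 1.77 (exact permutation p = 0.0571, the smallest possible, and 0.114 adjusted over both ratios). Kdr contributed more to it than Vegfa, with log2 fold changes of -1.52 for Kdr and 0.27 for Vegfa in edgeR. These fold changes follow mean CPM, not mean log2 CPM, so they do not split the difference exactly. In limma-voom the log2 value of Vegfa was 0.01. Angpt2 minus Angpt1, the antagonist of Tek over its activator, was -1.84, 0.54, -0.36 and -3.52 in tumours, against -3.98, -2.70 and -1.67 in glands, and the groups overlapped (difference 1.49, exact permutation p = 0.286).

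Among the other VEGF genes, the ligand Pgf rose. Pgf (placental growth factor), which binds Flt1 but not Kdr, was at 3.75, 33.5, 20.5 and 15.9 CPM in tumours 1a, 1b, 3 and 4, and at 0.707, 0.725 and 1.14 CPM in glands 1, 2 and 3. Every tumour was above every gland, a 20.7-fold rise (log2 4.37, SE 0.79, adjusted p = 0.0214 in edgeR, but 0.0826, 0.0761 and 0.0911 without control gland 1, 2 or 3, and 0.0808 in limma-voom). Gland 1 held only 2 counts of Pgf.

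Of the 9 VEGF ligands and receptors tested, 1 rose, 0 fell and 8 did not pass, where 8.47% of all tested genes passed. The list's median log2 was -0.80. Where Vegfc also entered the test, the median was nearer to 0. It ranged from -0.66 without tumour 1b to -0.05 without the spindle cell tumour, and was -0.17 without control gland 3. Vegfb, a ligand of Flt1, was at 2.30 to 4.98 CPM in tumours and 3.89 to 16.3 CPM in glands (log2 -1.60, adjusted p = 0.0952). Vegfd, a ligand of the lymphatic receptor Flt4, was at 4.6 CPM in tumour 1a but at 0.0985 to 0.139 CPM in the other tumours, against 5.66 to 12.8 CPM in glands (log2 -2.89, adjusted p = 0.188). Vegfc, another Flt4 ligand with too few counts to be tested, was at 12 CPM in tumour 1a and 0.105 CPM in the papillary tumour, against 0.806 to 1.2 CPM in glands. Flt4 itself was at 3.66 to 19.7 CPM in tumours and 5.50 to 7.07 CPM in glands (adjusted p = 0.498). The co-receptors Nrp1 (log2 -1.32, adjusted p = 0.242) and Nrp2 (log2 0.79, adjusted p = 0.589) did not pass. Nrp2 split the tumours, at 129 CPM in 1a, 115 CPM in 1b, 10.7 CPM in 3 and 14.3 CPM in 4, against 32.9 to 44.8 CPM in glands, and its log2 value was -0.12 in limma-voom.

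In the angiopoietin system the phosphatase gene Ptprb fell. Ptprb (VE-PTP), which removes phosphate from Tek and from the VE-cadherin complex, was at 29.0, 22.3, 19.0 and 12.2 CPM in tumours 1a, 1b, 3 and 4, and at 87.0, 113 and 186 CPM in glands 1, 2 and 3. That is a 6.25-fold fall with no overlap (log2 -2.64, SE 0.39, adjusted p = 0.0127 in edgeR, and 0.0564 without control gland 3). Of the 5 genes tested 0 rose, 1 fell and 4 did not pass, where 8.47% of all tested genes passed. The receptor gene Tek was at 0.690 to 12.9 CPM in tumours and 12.7 to 25.0 CPM in glands (log2 -2.15, SE 0.86, adjusted p = 0.151). Its activator Angpt1 was at 5.62 to 22.6 CPM in tumours and 25.2 to 57.7 CPM in glands (log2 -1.32, SE 0.58, adjusted p = 0.180), and the orphan receptor Tie1 at 1.95 to 11.7 and 2.83 to 13.7 CPM (log2 -0.57, adjusted p = 0.626). Angpt4 had too few counts to be tested.

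**Figure D4:**
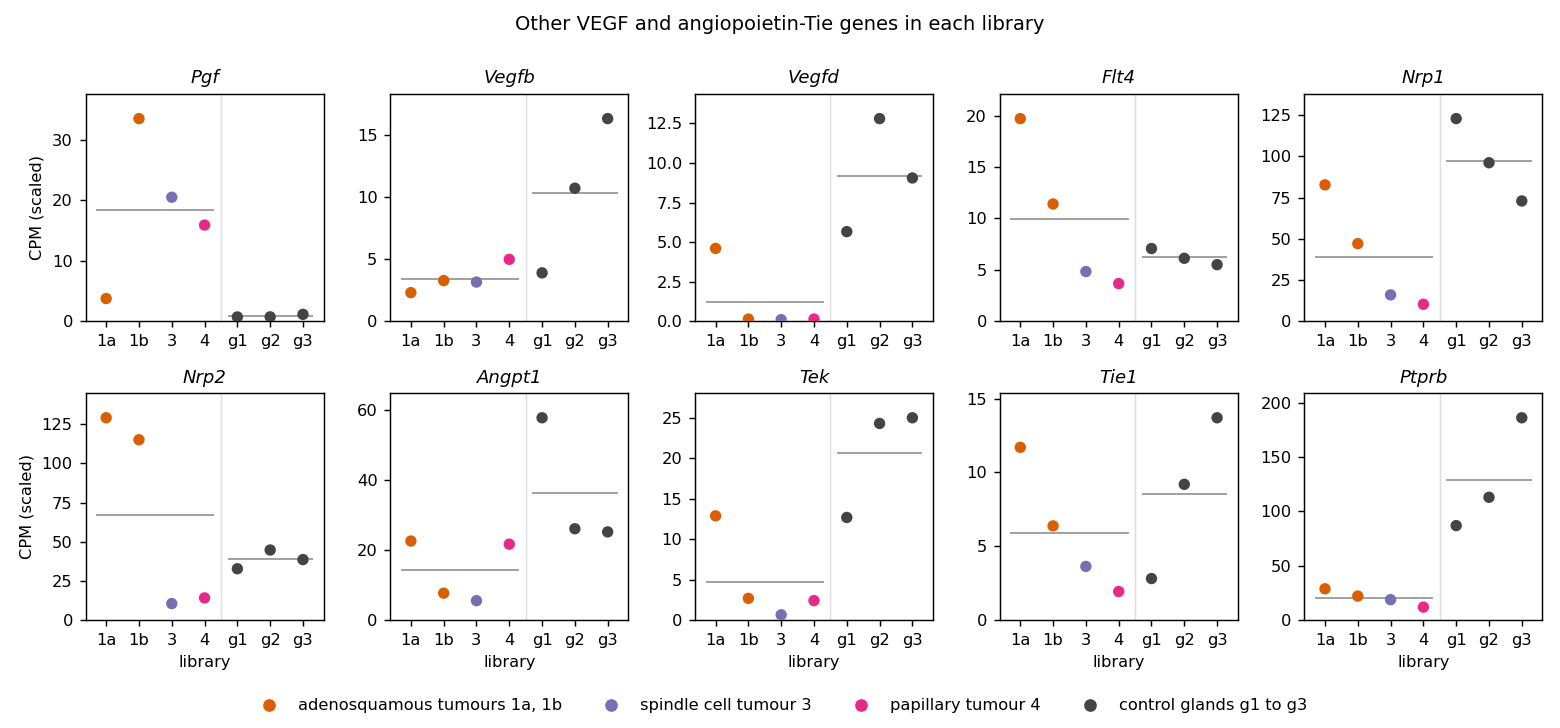
CPM of 10 other VEGF and angiopoietin-Tie genes in tumours 1a, 1b, 3 and 4 (left) and control glands g1 to g3 (right), on linear axes from 0, with grey group means. Pgf lies above the glands in all 4 tumours, and Ptprb below them.

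Genes typical of capillaries in fat gave more calls than the other endothelial lists. Of 9 tested genes of the capillary and fat endothelium list, 5 fell, 0 rose and 4 did not pass. Over all tested genes 8.47% passed (4.57% as lower). The median log2 was -3.43 for the list and 0.12 for all tested genes. Btnl9, a butyrophilin-like gene of capillary endothelium, was at 5.36, 2.04, 3.05 and 1.92 CPM in tumours 1a, 1b, 3 and 4, and at 93.0, 93.6 and 75.1 CPM in glands 1, 2 and 3, a 28.2-fold fall (log2 -4.82, SE 0.43, adjusted p = 0.00675 in edgeR) that passed whichever library was left out. The endothelial homeobox gene Meox2 (log2 -3.43), the carbonic anhydrase gene Car4 (log2 -3.73) and Aqp7 (log2 -6.02) also fell, these 3 named after their values were seen. Fabp4, a fatty acid carrier of capillaries and fat cells, was at 6.80 to 96.0 CPM in tumours and 2020 to 3340 CPM in glands (log2 -6.37, adjusted p = 0.0196). Gpihbp1, which holds lipoprotein lipase on capillary walls, was at 1.01 to 9.87 CPM in tumours and 22.3 to 34.5 CPM in glands, but did not pass (adjusted p = 0.0587).

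Fabp4, Cd36 and Aqp7 of this list are also genes of fat cells, whose 8 markers all lay below the glands in each tumour, and 7 of them passed (2 without tumour 1b, 3 without the spindle cell tumour or control gland 1 or 2, and 1 without control gland 3). The part of fat cells in these results was not tested. For the capillary and fat endothelium list, the number passing with 1 library left out was 1 (tumour 1b, or control gland 1 or 3), 2 (control gland 2), 3 (the spindle cell tumour) or 6 (tumour 1a or the papillary tumour). Btnl9 was among them each time.

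Other pan-endothelial genes moved less. Of 22, 2 fell (Ptprb and Ramp2), 0 rose and 20 did not pass, where 8.47% of all tested genes passed (4.57% as lower). The list's median log2 was -1.27. Ramp2, the partner of the adrenomedullin receptor, was at 0.488 to 2.81 CPM in tumours and 8.49 to 12.5 CPM in glands (log2 -2.84, adjusted p = 0.0384 in edgeR, lost without any 1 gland, tumour 1b or the spindle cell tumour). Ecscr, an endothelial chemotaxis gene, differed most the other way (log2 0.45, adjusted p = 0.718, and -0.39 in limma-voom). The count was 5 without tumour 1a, which had the most endothelial RNA of the tumours, 0 in edgeR without control gland 3 (2 at an unadjusted p under 0.05) and 1 without any other library except the papillary tumour (2).

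Genes of sprouting tip cells had a median log2 over the glands of 1.35 in adenosquamous, 0.11 in spindle cell and -0.15 in papillary tumours, with no test between types. Over all tumours, of 11, 2 rose (Pgf, described above, and Unc5b), 0 fell and 9 did not pass. Over all tested genes 8.47% passed. The list's median log2 was 1.62 (0.60 without tumour 1b). In limma-voom it was 0.08, and there 0 of the 11 passed and 4 were at an unadjusted p under 0.05. Unc5b, a netrin receptor of tip cells, was at 45.8, 38.9, 18.6 and 7.18 CPM in tumours 1a, 1b, 3 and 4, and at 1.06, 4.92 and 3.03 CPM in glands (log2 3.11, adjusted p = 0.0494 in edgeR). Its call was lost when any library but the papillary tumour was left out, and in limma-voom. The receptor gene Aplnr differed most the other way (log2 -0.93, adjusted p = 0.467 in edgeR). The part of cells other than endothelial cells in this list's values was not tested. Without control gland 1, 2 or 3, 0 of the 11 passed in edgeR (3, 4 and 2 at an unadjusted p under 0.05).

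**Figure D5:**
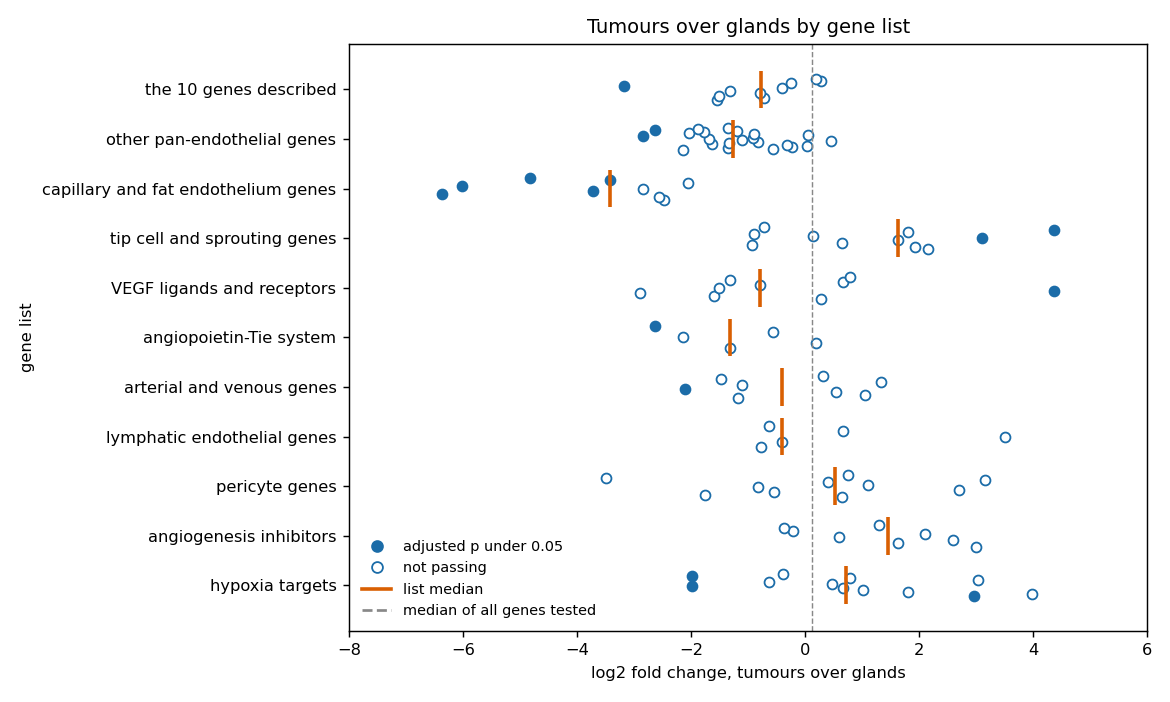
Log2 fold change, tumours over glands, of each tested gene by list, with filled points for an adjusted p under 0.05, orange bars for list medians and a dashed line for the median of all tested genes (0.12). The capillary and fat endothelium genes lie between -6.37 and -2.05, and the tip cell list has its median at 1.62.

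Arteries, veins, lymphatics and the vessel's outer cells gave few calls, where 8.47% of all tested genes passed in edgeR. Of 8 arterial and venous genes, Sema3g, an arterial semaphorin, fell (log2 -2.11, adjusted p = 0.0288 in edgeR, lost without any 1 library except the papillary tumour) and 7 did not pass, among them Ephb4, a venous ephrin receptor (log2 1.33, adjusted p = 0.0588), and Selp, P-selectin (log2 -1.47, adjusted p = 0.282). Of 5 lymphatic genes 0 passed in edgeR (1 at an unadjusted p under 0.05; 1 passed in DESeq2 and 0 in limma-voom). Pdpn, which lymphatic endothelium shares with basal epithelium and fibroblasts, was at 3.38 to 63.1 CPM in tumours and 0.354 to 4 CPM in glands (adjusted p = 0.0900 in edgeR). The list's median log2 was -0.41, and -1.79 in limma-voom. With 6 genes tested it was 0.48 without the spindle cell tumour and -2.70 without tumour 1a, so its direction was not settled. Pdpn and Flt4 were above 0, while Prox1 (log2 -0.77), Lyve1 (-0.41) and Reln (-0.63) were below. Of 10 pericyte genes 0 passed in edgeR (2 at an unadjusted p under 0.05, with 3 passing in DESeq2 and 1 in limma-voom), and Rgs5, the commonest pericyte marker, was at 33.2 to 105 CPM in tumours and 189 to 220 CPM in glands (log2 -1.75, SE 0.44, adjusted p = 0.0528). Of 8 angiogenesis inhibitors 0 passed in edgeR (3 at an unadjusted p under 0.05, with 3 passing in DESeq2 and 0 in limma-voom). Thbs1, a secreted inhibitor, was at 42.2 to 413 CPM in tumours and 19.1 to 43.9 CPM in glands (adjusted p = 0.0693).

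Of 12 targets of hypoxia-inducible factors, a family to which Vegfa belongs, the glucose transporter gene Slc2a1 rose (log2 2.96, adjusted p = 0.0136 in edgeR, lost without control gland 1 or 3), Bnip3 (log2 -1.99, adjusted p = 0.0156) and Hk2 (named after its values were seen, log2 -1.99, adjusted p = 0.0282) fell and 9 did not pass. Bnip3 was lost without tumour 1b or control gland 1 or 3, and Hk2 without tumour 1a, the spindle cell tumour or any 1 gland. Ankrd37 was at log2 3.04 (adjusted p = 0.0637). Over all tested genes 8.47% passed in edgeR.

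Markers of other cells were summed beside these values. Leukocyte markers, 7 genes, summed to 362.2, 586.2, 46.9 and 89.4 CPM in tumours 1a, 1b, 3 and 4, and to 55.88, 386.4 and 59.54 CPM in glands 1, 2 and 3. Platelet markers, 6 genes, summed to at most 9.618 CPM in tumours and 5.309 CPM in glands, with Gp9 at 0 in every library. Fibroblast markers, 6 genes, summed to 5933, 1608, 298.7 and 266.2 CPM in tumours and 405.3, 1153 and 1269 CPM in glands, and so ran in the same order over the tumours as Cdh5. Epithelial markers, 6 genes, summed to 1034 to 1512 CPM in tumours and 177.6 to 303.5 CPM in glands. Of 5 red cell markers, 1 fell (Hba-a1, log2 -3.59, adjusted p = 0.0478, lost whichever library was left out), 0 rose and 4 did not pass. In edgeR 2 of 6 epithelial markers rose, and 0 of 6 tested leukocyte, 0 of 6 fibroblast, 0 of 2 tested platelet and 0 of 8 muscle markers passed (3, 2, 0 and 8 at an unadjusted p under 0.05). DESeq2 called 3, 2, 0 and 7 of these, and limma-voom 0, 1, 0 and 0. Over all tested genes 8.47% passed in edgeR, 24.1% in DESeq2 and 10.8% in limma-voom. The part of these cells in the endothelial values was not tested.

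Genes with the most similar profiles were sought among 7486 other protein-coding genes with a named symbol and at least 3 log2 CPM on average, by the mean absolute difference between log2 CPM profiles centred over the 7 libraries. For Cdh5 they were Fam102b (0.15), Zfp521 (0.21) and Arhgap31 (0.23). For Vegfa they were Bhlhe40 (0.16), Gripap1 (0.19) and Plekhb2 (0.21), and for Angpt2 B4galt6 (0.24), Ctif (0.26) and Slc44a2 (0.26). Bhlhe40, a transcription factor known to respond to low oxygen, was at 6.07, 7.28, 5.13 and 5.14 log2 CPM in tumours 1a, 1b, 3 and 4, against 5.70 to 5.93 log2 CPM in glands, much as Vegfa was.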

How the data were processed

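The authors deposited 1 table per library with 1 estimated count per gene, in a column headed TPM. Its sums differ between libraries and most values are whole (2.34% to 6.14% are not), so they were read as estimated (expected) counts and rounded. Per the submitters' processing notes STAR 2.5, RSEM 1.3, limma and GRCm38 were used, with no roles given. Per the labels' protocols, libraries came from a TruSeq v2 kit, read as pairs of 75 bases. No 2 libraries of a group were repeat readings (chi-square per degree of freedom 93.7 or more). Samples are described as independent with no further detail, so p-values measure the spread between these libraries.

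The 10 genes and the lists were chosen with earlier results of these data known. All genes were fitted with edgeR 4.0.16 in R 4.3.3 (quasi-likelihood F test, TMM, filterByExpr at 10 counts, total 15, two-sided, Benjamini-Hochberg over 14149 genes). SE is the log2 fold change divided by the square root of F, and a prior count of 2 went into log2 CPM. Exact permutation tests used all 35 ways to divide the 7 libraries. Named list genes were the 2 with the smallest adjusted p in a list's main direction and the 1 that changed most the other way, or the smallest p where none passed. All VEGF and angiopoietin-Tie genes were named. Positions and exon lengths came from GENCODE M21 on GRCm38. Alternatives used DESeq2 1.42.0, limma-voom (limma 3.58.1), other scalings and filters, and left-out libraries. Depth limits low genes such as Sox17.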

Additional observations from a re-analysis of the deposited data

Results flagged for a closer look

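Among 66 sets of 4 tumour values examined, 2 held a tumour far from the other 3 by Dixon's test, while chance alone marks about 1 in 20. Vegfd was at 2.24 log2 CPM in tumour 1a (54 counts) and at -2.17 to -1.93 in the other tumours. Tumours 1b, 3 and 4 held only 1, 1 and 4 counts of it, so their values lie near the floor set by the prior count. B4galt6, one of the genes most like Angpt2, was at 1.89 log2 CPM in papillary tumour 4 and at 3.60 to 3.93 in the other tumours.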

How the results depend on the processing

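Titles give the numbers 1 and 3 to tumours and glands alike, with nothing to say that they mark an animal, litter or batch, and deviations of same-numbered tumours and glands correlated at -0.15 to 0.01 across genes. With that number as a replicate block, chosen after seeing the data, edgeR called 0 genes in all (3021 at an unadjusted p under 0.05), and 0 of the 10 genes and of each list, on 2 residual degrees of freedom. Over all genes, 3403 passed in DESeq2, 97 to 1351 with 1 library left out (lowest without control gland 3), and 0 in edgeR with gland 2 as the only control (1655 at an unadjusted p under 0.05), against 1199. Of the 10 genes, tumours against glands gave 2 calls in DESeq2 (24.1% of all tested genes) and 0 with no filter in edgeR (2.92%). With 1 library left out that comparison gave 0 to 2 (0.654% to 9.88% of all tested genes), with Pecam1 and Kdr the 2 without tumour 1a (5.9%). Adenosquamous tumours gave 1 in DESeq2, under median-ratio scaling and with their 5 libraries alone, and 0 to 1 with 1 library left out. The spindle cell tumour gave 6 in DESeq2 and 2 with no filter, and the papillary tumour 0 to 3 with 1 library left out. Between types, DESeq2 gave 5, and limma-voom, no filter and removal of 403 muscle genes gave 1 each. The share of all tested genes called moved with the same settings, so these changes in count are not particular to the 10 genes. Capillary genes gave 8 in DESeq2 (24.1% of all tested genes) and 1 to 6 with 1 library left out (0.654% to 9.88%). Pan-endothelial genes gave 4 in limma-voom (10.8%), 1 with no filter (2.92%) and 0 to 5 with 1 left out. Tip cell genes gave 0 in limma-voom, 1 under a stricter filter (7.31%) and 0 to 2 with 1 left out. With gland 2 as the only control, all these lists and the 10 genes gave 0.

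Signs turned for small log2 differences. In limma-voom Angpt2 was at -0.42, Nrp2 at -0.12 and Ecscr at -0.39. With gland 2 as the only control, Angpt2 in the spindle cell tumour was at 0.04 and Casq1 at 0.14. With 1 library left out, tumours against glands ranged from -1.10 to 0.01 for Plvap, -0.89 to 0.21 for Sox18, -0.32 to 0.46 for Vegfa and -0.30 to 0.64 for Angpt2. Adenosquamous tumours against glands ranged from -0.45 to 0.26 for Cdh5, -0.50 to 0.76 for Plvap and -0.28 to 0.87 for Sox18, and the spindle cell tumour from -0.44 to 0.22 for Angpt2. Relative to other endothelial genes, Cdh5 ranged from -0.03 to 0.54 and Emcn from -0.26 to 0.06. The yardstick of Cdh5, Tie1 and Esam was not used for Cdh5, which it contains. The causes were not tested. Depth limits Sox17, Sox18 and Angpt2, which had 5 to 10 counts in control gland 1.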
